A study of Mus musculus with 16 samples.

Results

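The comparison described here is that of HIRA KO with control liver after regeneration, 4 libraries against 4, in tissue taken 5 days after part of the liver had been resected. The genes were all those with at least 10 counts in total over these 8 libraries, which left 20947 of the 55421 genes in the count table. All mice were male C57BL/6 mice injected with AAV8 at 6 months of age, and the Tbg promoter of every vector is active in hepatocytes, so that other liver cells keep Hira. HIRA KO mice were either HIRA fl/fl mice given AAV8-Tbg-Cre or wildtype mice given AAV8-Tbg-saCas9 with an sgRNA against HIRA. Control mice were wildtype and received AAV8-Tbg-Cre, or AAV8-Tbg-saCas9 with an sgRNA against Rosa26. Each group held 2 libraries of each approach, and the resection was done 4 weeks after the injection. The count columns carry a number from 1 to 4 in each group but not the approach or the mouse, so the approaches cannot be told apart here and a library is named by its group and number. The same mice gave the resected tissue, which is the before regeneration group of 4 control and 4 HIRA KO libraries, and these 8 libraries were used to estimate the spread of each gene and for the last comparison.

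HIRA is a histone chaperone that places the H3.3 variant of histone H3 into chromatin outside of DNA replication, together with the subunits UBN1, UBN2 and CABIN1 and with the chaperone ASF1A, which hands histones to it. Hepatocytes rarely divide in an adult liver, but after resection the remaining lobes grow back within days as hepatocytes enter the cell cycle. The regrown liver then returns to its work of bile secretion, detoxification, plasma protein synthesis and nitrogen disposal, and much of this expression also follows the circadian clock.

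Total counts of the 8 libraries ran from 16981835 to 21738619, and the values below are CPM, reads of a gene for every 1e+06 reads of a library after TMM scaling, given for libraries 1 to 4 in order. Albumin alone took 9.49% to 12.7% of the counts and transcripts of the mitochondrial genome took 4.14% to 6.01%. HIRA KO libraries 1 and 2 stood apart from the other 6. On the first principal component, which held 50.6% of the variance over 13176 genes, these 2 libraries lay at 52.8 and 47.2, while the other 6 all lay below zero, HIRA KO libraries 3 and 4 at -14.8 and -13.6 and the 4 control libraries down to -23.9. Results are therefore also given without HIRA KO libraries 1 and 2, an alternative that was chosen after the data had been seen. All 4 control libraries stay in that fit, although they too differed by number. On the second component, which held 17% of the variance, control libraries 1 and 2 lay at 31.8 and 22.7. Control libraries 3 and 4 lay at -8.19 and -15.7.

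At an adjusted p under 0.05 (edgeR quasi-likelihood test, Benjamini-Hochberg over all genes tested), 111 genes differed between HIRA KO and control, which is 0.53% of those tested. Of these, 54 genes (0.258%) rose and 57 genes (0.272%) fell in HIRA KO. The genes that rose did so by more. Their log2 fold changes had a median of 1.48, with 37 of 54 above 1, and those of the genes that fell had a median of -0.68, with 11 of 57 below -1. The genes that rose were also less abundant. A mean CPM of at least 10 was reached by 26 of 54 that rose and 49 of 57 that fell. The part of abundance in the size of the changes was not tested. The groups did not overlap for 109 of the 111 genes, the exceptions being Prepl and Ern1, while over all genes the 4 HIRA KO values lay above all 4 control values in 4.2% and below them in 4.35%. When counts were scaled by library size alone, 45 genes rose and 14 fell. The number of calls depended on which libraries were in the fit. It was 5 without HIRA KO library 1, 9 without HIRA KO library 2, 391 without HIRA KO library 3, 514 without HIRA KO library 4, and 6, 11, 6 and 22 without control libraries 1 to 4. Without HIRA KO libraries 1 and 2 only Inmt was called, and when edgeR was fitted to the 8 libraries after regeneration alone no gene passed, although 3046 genes had an unadjusted p under 0.05 and DESeq2 called 515 genes on the same libraries.

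Hira, the targeted gene (ENSMUSG00000022702.16, chr16:18877037-18970309, plus strand, GRCm38), was measured at 5.5, 4.96, 5.82 and 6.33 CPM in the control libraries and at 3.2, 3.3, 3.06 and 4.59 CPM in the HIRA KO libraries. Every HIRA KO library lay below every control library. The group means were 5.65 ± 0.577 (SD, n = 4) and 3.54 ± 0.706 CPM, a log2 fold change of -0.68 ± 0.17 (SE). This gave an exact two-sided permutation p of 0.0286, the smallest that 4 against 4 libraries allow, but an adjusted p of 0.0672 in the edgeR fit over all genes. The counts cover the whole gene and the whole tissue, so deleted and intact exons cannot be told apart, nor can fewer cells of a type and less RNA per cell, here or in any result below. Among the other genes of the HIRA complex and H3.3 list, H3f3a, which encodes H3.3, rose (adjusted p = 0.0371, edgeR). It was at 59.6, 56.7, 61.9 and 57.9 CPM in control and at 108, 130.5, 84.1 and 82.2 CPM in HIRA KO, with the larger values in HIRA KO libraries 1 and 2. The mouse genome holds processed copies of H3f3a, and how reads shared with them were counted is not known. The second H3.3 gene, H3f3b, had a log2 fold change of 0.46 ± 0.16 (adjusted p = 0.158), and Asf1a was higher in every HIRA KO library at 6.63 to 9.05 CPM against 4.12 to 6.09 CPM (adjusted p = 0.0599). Ubn1, Ubn2 and Cabin1 had log2 fold changes of -0.28, -0.05 and 0.03, and none was called. Of 11 other histone chaperone genes none was called, with a median log2 fold change of -0.09 (0.04 without HIRA KO libraries 1 and 2) beside 0.03 over all genes tested.

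Of the 111 genes, 10 were also called by DESeq2 on the 8 libraries alone and in at least 4 of the 8 edgeR fits that left out a library. The fits without HIRA KO library 3 and without HIRA KO library 4 each called all 111, so those fits set no gene apart. Among the 10 genes, 5 rose. The largest fold change was that of Slc5a9, a sodium-dependent sugar transporter (chr4:111875375-111902918), which was close to the detection limit in control with 0.125, 0.171, 0.0539 and 0.0483 CPM, or 7 reads in all, and reached 1.97, 1.29, 1.39 and 0.503 CPM in HIRA KO (110 reads). Its log2 fold change was 3.65 ± 0.54 (adjusted p = 0.012). Cdhr2, a protocadherin that links the tips of neighbouring microvilli (chr13:54701461-54736662), was at 0.75, 0.684, 1.35 and 0.435 CPM in control and at 15.4, 9.95, 5.41 and 5.2 CPM in HIRA KO. All 4 HIRA KO libraries were thus above the highest control library, libraries 1 and 2 by the most, and the log2 fold change was 3.48 ± 0.44 (adjusted p = 0.00499). Bmp7, a ligand of the bone morphogenetic protein family (chr2:172868012-172940321), rose from 1.37, 2.34, 1.51 and 2.22 CPM to 8.64, 11.5, 5.79 and 6.04 CPM, a log2 fold change of 2.1 ± 0.27 (adjusted p = 0.00499). Inmt encodes an N-methyltransferase of indoleamines (chr6:55170626-55175043) and was abundant. It was at 83.4, 54.8, 62.1 and 44.5 CPM in control and at 140.2, 442, 318 and 421 CPM in HIRA KO, with a log2 fold change of 2.43 ± 0.31 (adjusted p = 0.00548). Among the HIRA KO libraries it was lowest in library 1, and its log2 fold change was 2.59 without HIRA KO libraries 1 and 2. Ap3m1, a subunit of the AP-3 adaptor that sorts cargo to lysosomes (chr14:21031442-21052508), rose by less, from 52.0 to 72.9 CPM in control to 88.9 to 121 CPM in HIRA KO (log2 fold change 0.75 ± 0.13, adjusted p = 0.0369).

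The other 5 of these 10 genes fell. Ndrg1, which is induced by hypoxia and cell stress (chr15:66929318-66969640), was at 33.4, 17.1, 42.2 and 36.3 CPM in control and at 6.91, 5.76, 10.1 and 9.79 CPM in HIRA KO, a log2 fold change of -1.99 ± 0.31 (adjusted p = 0.025). St6gal1, the sialyltransferase that caps N-glycans of plasma glycoproteins in an alpha-2,6 linkage (chr16:23224740-23360350), was an abundant transcript. It was at 267, 172, 195 and 199 CPM in control and at 78.5, 77.1, 115 and 105 CPM in HIRA KO (log2 fold change -1.15 ± 0.16, adjusted p = 0.00654). Abca8b, a lipid transporter of the ATP-binding cassette family (chr11:109932190-109995845), fell from 88.1, 81.4, 95.7 and 88.9 CPM to 40.5, 35.8, 47.7 and 57.5 CPM, a log2 fold change of -0.97 ± 0.13 (adjusted p = 0.00654). The 4 control libraries differed little, and all HIRA KO libraries lay below them. Ldlrad3, a membrane protein with LDL receptor class A repeats (chr2:101950203-102186385), fell from between 10.5 and 13.4 CPM to between 5.26 and 7.38 CPM, a log2 fold change of -0.92 ± 0.14 (adjusted p = 0.0148). Stxbp6, a regulator of vesicle fusion (chr12:44852484-45074709), fell from between 14.9 and 18.5 CPM to between 9.33 and 11.2 CPM. Its log2 fold change of -0.74 ± 0.11 (adjusted p = 0.0148) was also -0.74 without HIRA KO libraries 1 and 2. Cdhr2, Inmt, Bmp7, Abca8b and St6gal1 were called in all 8 fits that left out a library, Slc5a9 in 5, and Ap3m1, Stxbp6, Ldlrad3 and Ndrg1 in 4.

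**Figure D1:**
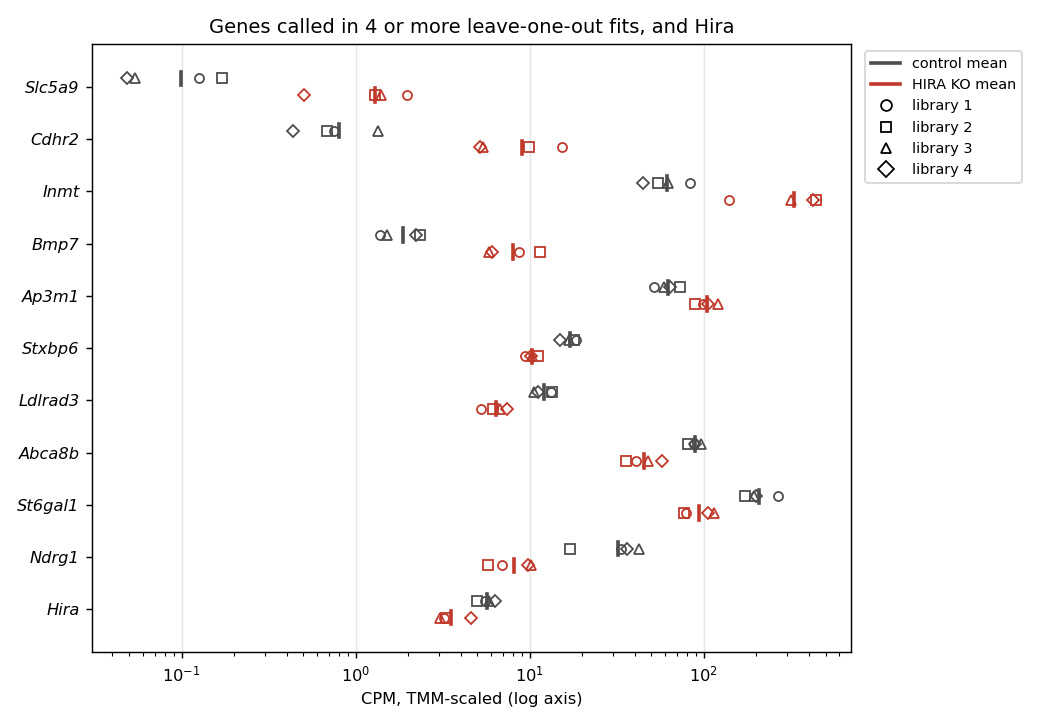
CPM on a log axis for each of the 8 libraries after regeneration, for the 10 genes called in at least 4 leave-one-out fits and for Hira. Grey marks are control libraries, red marks HIRA KO libraries, the mark shape is the library number and the vertical bar is the group mean (n = 4). The groups do not overlap for any of the 11 genes, and Cdhr2 goes from a mean of 0.804 to 8.98 CPM.

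Other genes that rose by a large factor were called in 3 or fewer of those fits, and most of them were low in control liver. Cyp2b10, the cytochrome P450 induced by phenobarbital through the receptor CAR, was at 5.19, 2.11, 4.2 and 7.78 CPM in control and at 55.7, 133, 23.3 and 27.2 CPM in HIRA KO (log2 fold change 3.63 ± 0.73, adjusted p = 0.0495). It was highest in HIRA KO library 2, and its log2 fold change was 2.38 without libraries 1 and 2. Bc1, a short RNA made by RNA polymerase III, was at 1.75 to 4.35 CPM in control and at 40.8, 28.6, 11.4 and 6.38 CPM in HIRA KO, and related repeats occur throughout the genome, so its count is uncertain. Npb (neuropeptide B), Fbxo2 (an F-box protein that binds glycoproteins), C1ql4 (a secreted C1q-like protein), Ak1 (adenylate kinase), Chpf (chondroitin polymerisation) and Adamtsl5 (an extracellular matrix protein) rose by between 2.18 and 3.14 on the log2 scale. All 6 had control means between 0.256 and 2.91 CPM. In Chpf and Adamtsl5 most of the difference lay in HIRA KO libraries 1 and 2, and the log2 fold changes of these genes without those libraries were 1.16 and 0.84 against 2.37 and 2.18 with them.

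Among the abundant transcripts that rose were enzymes of metabolism. Gpt, the alanine aminotransferase, was at 226, 191, 155 and 176 CPM in control and at 491, 630.3, 268 and 266 CPM in HIRA KO, so that the difference was small in libraries 3 and 4. Csad, which makes hypotaurine, the precursor of taurine, rose 2.22-fold from 75.9 ± 21.3 to 169 ± 53.7 CPM. Prdx5, a peroxide reductase, rose 1.52-fold from 159 ± 7.61 to 242 ± 33.8 CPM, and its values of 209, 227, 243 and 288 CPM in HIRA KO were not led by libraries 1 and 2. Among the abundant transcripts that fell was Abcc2, the canalicular pump that exports bilirubin glucuronides into bile. It was at 709, 868, 898 and 959 CPM in control and at 356, 507, 605 and 529 CPM in HIRA KO, a log2 fold change of -0.78 ± 0.16 (adjusted p = 0.0438). Sppl2a, an intramembrane protease of lysosomes, was at 215 to 272 CPM in control but at 84.7 and 72.4 CPM in HIRA KO libraries 1 and 2 and 160.3 and 165 CPM in libraries 3 and 4. The receptor phosphatase Ptprf fell from 211 ± 24.8 to 139 ± 8.88 CPM. St3gal1, a sialyltransferase that acts on O-glycans, fell from 212 ± 27.3 to 121 ± 26.3 CPM.

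The largest fall of all was that of Loxl4, a lysyl oxidase that cross-links collagen, which was at 12.4, 13.8, 14.7 and 15.0 CPM in control and at 1.14, 0.892, 5.46 and 3.3 CPM in HIRA KO (log2 fold change -2.38 ± 0.43, adjusted p = 0.041). None of the other 4 lysyl oxidase genes was called, and their log2 fold changes lay between 0.09 and 0.50. Spata22, known for its role in meiosis, fell from between 1.64 and 2.06 CPM to between 0.134 and 0.814 CPM. Mug-ps1, a murinoglobulin pseudogene whose reads may be shared with its family, fell from 152 ± 34.7 to 62.4 ± 24.5 CPM. The GTPase-activating proteins Asap2 and Arhgap32, the CCCH zinc finger gene Zc3h12d and the less known 4833418N02Rik and Gm49396 fell by between 1.00 and 1.19 on the log2 scale. Further genes that fell were picked out after their values were seen. The tight junction genes Cldn1 and Cgnl1 were at 139 ± 19.3 and 126 ± 15.6 CPM in control and at 81.5 ± 7.01 and 72.1 ± 17.7 CPM in HIRA KO. Ceacam1, an adhesion molecule of the bile canaliculus, went from 158 ± 14.6 to 96.8 ± 20.2 CPM, and Tgfa, a growth factor for hepatocytes, from 36.4 ± 2.05 to 26.1 ± 2.06 CPM. The adjusted p of these 4 genes lay between 0.0349 and 0.0494.

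In most called genes the difference was larger in HIRA KO libraries 1 and 2. In 43 of the 54 genes that rose, and in 32 of the 57 that fell, both of these libraries lay farther from the control mean than both of libraries 3 and 4. The median log2 fold change of the genes that rose was 0.92 without libraries 1 and 2 and 1.88 without libraries 3 and 4, and that of the genes that fell was -0.54 and -0.82. The genes were chosen with all 4 libraries and almost all of them had groups that do not overlap, so the sign in a part of the libraries is given by that choice.

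**Figure D2:**
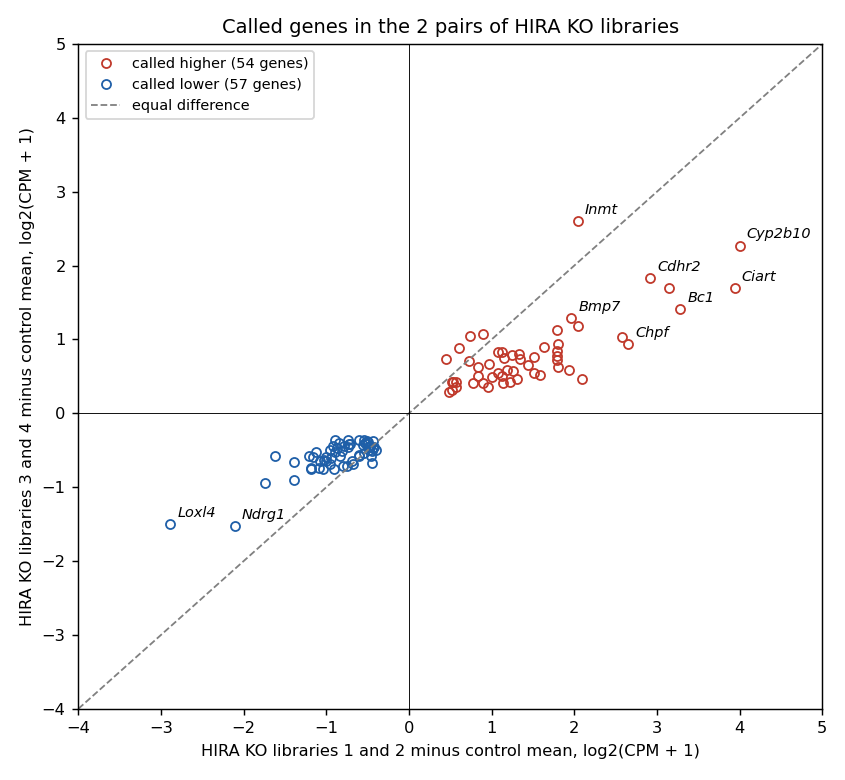
Each point is one of the 111 called genes, with its mean difference from the control mean in log2(CPM + 1) for HIRA KO libraries 1 and 2 (horizontal axis) and for libraries 3 and 4 (vertical axis). Red points are the 54 genes that rose, blue points the 57 that fell, and the dashed line marks equal differences. Most points lie closer to zero on the vertical axis, with Inmt as an exception.

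The circadian clock is a loop in which the activators CLOCK, NPAS2 and BMAL1 (gene Arntl) bind E-boxes and switch on their own repressors, and the output genes Dbp, Tef and Hlf pass the rhythm on to liver metabolism. Of the 15 clock repressor and output genes tested, 14 had a log2 fold change above zero and the list had a median of 1.26, beside 0.03 and 53.2% above zero over all genes. Only Ciart was called, beside 0.53% of all genes tested. In 8 of the 15 all HIRA KO values lay above all control values, beside 4.2% of all genes tested. Ciart, which represses CLOCK and BMAL1 (ENSMUSG00000038550.10, chr3:95878503-95882251), was at 0.687, 0.342, 0.539 and 0.483 CPM in control and at 14.1, 34.4, 4.55 and 3.3 CPM in HIRA KO, a log2 fold change of 4.78 ± 0.76 (adjusted p = 0.0341). Dbp was at 3.06, 3.36, 0.862 and 3.19 CPM in control and at 38.2, 87.5, 5.7 and 26.6 CPM in HIRA KO (log2 fold change 3.92 ± 0.88, adjusted p = 0.0651). Per3, a period gene, was at 1.99 to 3.65 CPM in control and at 20.9, 40.3, 4.55 and 8.39 CPM in HIRA KO (adjusted p = 0.0768). HIRA KO library 2 was the highest and library 3 the lowest or next to lowest in these genes. Bhlhe41, Usp2, Per1, Tef and Nr1d2 also did not overlap, with log2 fold changes of 2.94, 2.39, 1.71, 1.58 and 0.83 and adjusted p between 0.0651 and 0.118. Per2, Nr1d1 and Cry1 overlapped between groups, with log2 fold changes of 1.26, 0.17 and -0.73. That of Per2 was -0.04 without HIRA KO libraries 1 and 2.

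Of the activators, Npas2 and Arntl lay on the other side. Npas2 was at 9.93, 10.9, 14.0 and 8.89 CPM in control and at 2.56, 0.0446, 5.31 and 1.85 CPM in HIRA KO (log2 fold change -2.16 ± 0.74, adjusted p = 0.166). Arntl was at 28.0 to 39.3 CPM in control and at 13.4, 2.45, 25.9 and 12.7 CPM in HIRA KO (adjusted p = 0.264), and Nfil3, a repressor of the D-box, was at 44.3 to 58.8 CPM against 11.8 to 41.6 CPM. HIRA KO library 2 was again the farthest from control and library 3 the closest. None of these 3 was called although their groups did not overlap, 3 of the 8 genes tested beside 4.35% of all genes tested. Clock and Rora overlapped. The 8 genes of the list had a median of -0.20. Without HIRA KO libraries 1 and 2 the median was -0.21, and 3 of the 8 were above zero. The methods of the study state that surgery was done in the morning. The hour of tissue collection 5 days later is not given in the sources used here, and its part in these values was not tested. Without HIRA KO libraries 1 and 2 the median of the repressor and output list was 0.75 and Ciart had a log2 fold change of 2.93.

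Because these genes are read through the E-box, their promoters were searched for the letters CACGTG on both strands. RefSeq promoters (GRCm38.p6, 250 bases before to 50 bases after a start) were at hand for 12 of the 15 repressor and output genes, and 5 of them, Ciart, Bhlhe41, Cry1, Per1 and Tef, held at least 1 match. That is 41.7%, beside 8.09% of all 27025 genes in the promoter table and 10.8% of those tested. The list was made of genes known to be read this way, so a high share is given by that choice and says nothing of HIRA KO. Among the 5, Cry1 had a log2 fold change below zero. Among the 111 called genes, 4 of 40 that rose and 5 of 46 that fell with a promoter in the table held a match (10% and 10.9%). The Ciart promoter held 3 matches, and no other promoter of the list more than 1. It is printed 5′ to 3′ with those of Bhlhe41 and Per1, whose groups did not overlap either, with the E-box letters in capitals.
Ciart (chr3:95882179-95882478, minus strand): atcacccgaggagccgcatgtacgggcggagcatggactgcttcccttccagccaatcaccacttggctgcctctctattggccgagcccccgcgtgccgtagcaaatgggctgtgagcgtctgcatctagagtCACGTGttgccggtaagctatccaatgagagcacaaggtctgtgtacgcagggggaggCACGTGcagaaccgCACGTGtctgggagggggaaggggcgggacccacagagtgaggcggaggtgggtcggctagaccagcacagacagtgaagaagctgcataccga
Bhlhe41 (chr6:145865371-145865670, minus strand): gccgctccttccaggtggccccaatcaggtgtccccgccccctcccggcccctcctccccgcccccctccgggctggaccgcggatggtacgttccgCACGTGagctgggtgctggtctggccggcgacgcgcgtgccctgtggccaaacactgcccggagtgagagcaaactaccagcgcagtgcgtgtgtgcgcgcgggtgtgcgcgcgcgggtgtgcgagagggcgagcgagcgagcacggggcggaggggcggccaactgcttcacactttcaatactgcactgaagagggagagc
Per1 (chr11:69098699-69098998, plus strand): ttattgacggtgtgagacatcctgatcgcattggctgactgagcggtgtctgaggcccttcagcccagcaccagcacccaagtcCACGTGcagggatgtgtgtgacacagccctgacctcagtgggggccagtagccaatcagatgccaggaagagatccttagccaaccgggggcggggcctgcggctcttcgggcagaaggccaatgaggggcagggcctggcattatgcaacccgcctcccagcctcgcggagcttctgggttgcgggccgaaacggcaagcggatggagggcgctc
A match says only that the letters are present. The D-box TTANGTAA was found in 1 of the 12 promoters, that of Per3 (8.33%, beside 2.72% of all genes in the table). In the called genes it was in 2.5% of those that rose and 6.52% of those that fell. The hypoxia response core ACGTG, which lies within the E-box letters as well, was in 22.5% of the genes that rose and 30.4% of those that fell, beside 27.3% of genes tested. The sterol element core TCACNCCAC and the HNF4A site CAAAGTCCA, in 1.47% and 0.685% of genes tested, are too rare for sets of this size to be compared.

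**Figure D3:**
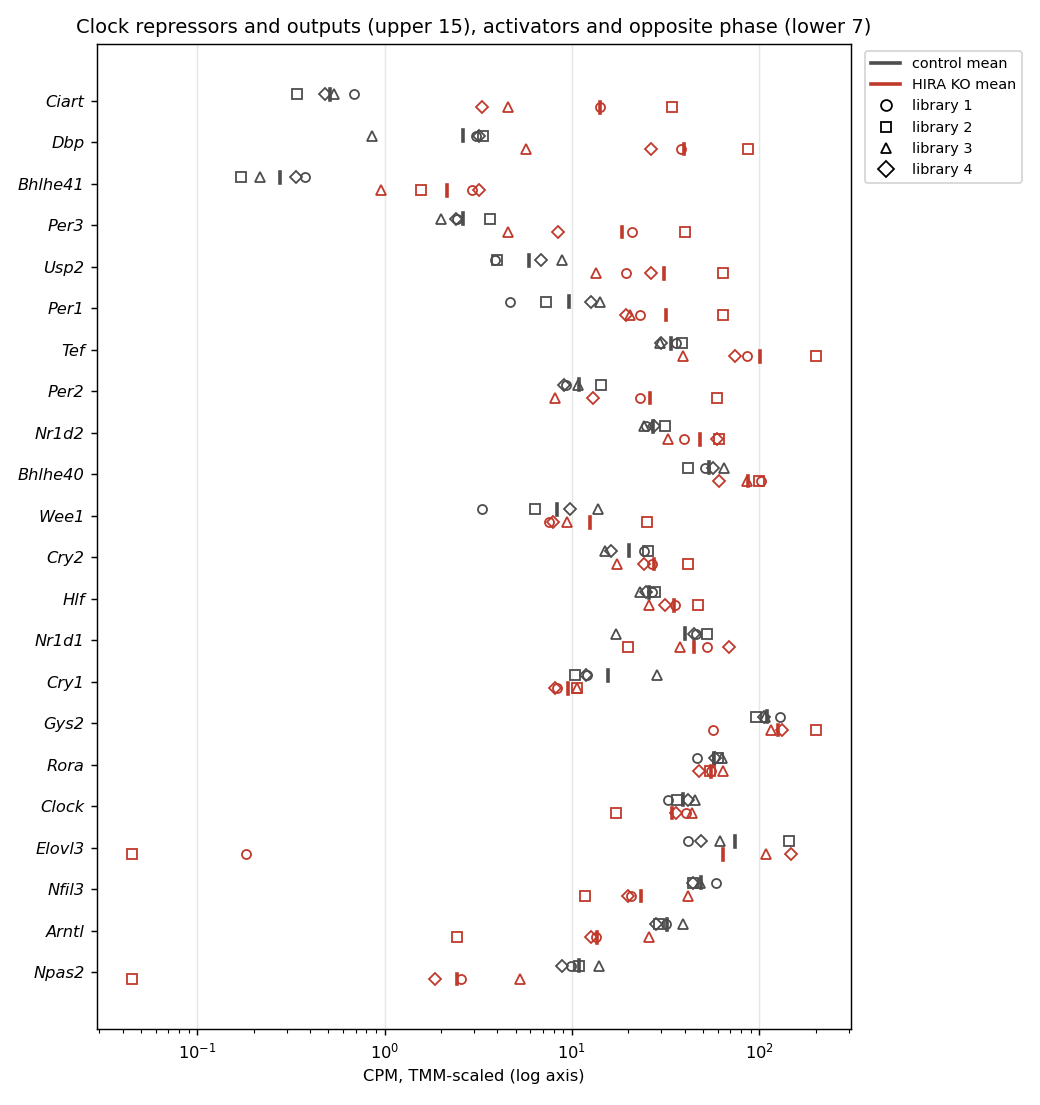
CPM on a log axis in each of the 8 libraries after regeneration for 15 clock repressor and output genes (upper rows) and 7 of the 8 activators and opposite phase genes (lower rows). Grey is control, red is HIRA KO, mark shapes are library numbers and bars are group means (n = 4). Ciart, Dbp, Bhlhe41, Per3, Usp2, Per1, Tef and Nr1d2 lie above control in every HIRA KO library, and Nfil3, Arntl and Npas2 below it, by the most in library 2.

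The proteins of the microvillus and brush border list build the finger-like surface of the bile canaliculus and of absorptive cells. Of its 13 genes tested, 12 were above zero, beside 53.2% over all genes. The median was 0.53 (0.31 without HIRA KO libraries 1 and 2). There were 2 calls, beside 0.53% of all genes tested. In 5 of the 13 all HIRA KO values lay above all control values, beside 4.2% of all genes tested. The list was chosen with earlier results of these data known. Beside Cdhr2, Pls1, which bundles the actin core of microvilli, rose from 2.06, 3.65, 0.647 and 0.773 CPM to 18.7, 24.6, 8.66 and 5.93 CPM (log2 fold change 3.04 ± 0.55, adjusted p = 0.0432). Vil1, which encodes villin, was at 0.125 to 0.323 CPM in control and at 5.26, 6.38, 0.527 and 0.559 CPM in HIRA KO, so that it lay above control in every library but far above it only in libraries 1 and 2 (adjusted p = 0.105). Anks4b and Slc9a3r1, which anchor these complexes, were also higher in every HIRA KO library, with log2 fold changes of 0.53 and 0.47 and adjusted p of 0.0589 and 0.167. Myo7b was at 11.3 and 10.5 CPM in HIRA KO libraries 1 and 2 and at 1.39 and 0.559 CPM in libraries 3 and 4, against 0.387 to 1.31 CPM in control.

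In the lists of liver metabolism few genes were called and the direction differed between lists. Cyp2b10 was the only call among the 21 genes of the P450 families and their reductase, whose median was -0.01. That median was made up of -0.53 and -0.18 in HIRA KO libraries 1 and 2 and 0.58 in both libraries 3 and 4, and it was 0.41 without libraries 1 and 2. Por, the reductase that supplies their electrons, was at 135 to 199 CPM in control and at 419, 758, 211 and 242 CPM in HIRA KO (adjusted p = 0.0743). Cyp3a11, the main drug-metabolising P450, was at 3080.1 to 5121 CPM in control and at 7246, 8081, 5584 and 5245 CPM in HIRA KO (adjusted p = 0.0699), and Cyp2d9 was likewise higher in every HIRA KO library. With Cyp2b10 and Por these were 4 of the 21 genes, beside 4.2% of all genes tested. Of the 16 bile acid genes only Abcc2 was called. Slc10a1, which takes bile acids up from the blood, was at 39.1 and 54.3 CPM in HIRA KO libraries 1 and 2 but at 251 and 289 CPM in libraries 3 and 4, within the control range of 217 to 436 CPM, and the list had a median of -0.29 with these libraries and -0.05 without libraries 1 and 2.

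Of the 24 cholesterol synthesis and uptake genes, 22 had a log2 fold change below zero, with a median of -0.48 and none called. Dhcr7, the last enzyme of the pathway, came closest at 184, 197, 107 and 154 CPM in control and 72.6, 60.9, 104 and 77.6 CPM in HIRA KO (log2 fold change -1.03 ± 0.22, adjusted p = 0.051). Hmgcs1 and Hsd17b7 also did not overlap, with log2 fold changes of -1.42 and -0.63. In 4 of the 24 genes all HIRA KO values lay below all control values, beside 4.35% of all genes tested. The median was -0.40 without HIRA KO libraries 1 and 2. Srebf2, which drives this pathway, was at 70.7 ± 6.34 CPM in control and 55.3 ± 7.08 CPM in HIRA KO (adjusted p = 0.108). Fatty acid synthesis and fatty acid oxidation genes had medians of -0.16 and -0.22, with no calls, and of -0.19 and 0.03 without HIRA KO libraries 1 and 2. Fasn (fatty acid synthase) had a log2 fold change of -0.76 and Srebf1, its regulator, one of 1.17, with adjusted p of 0.25 and 0.185. Srebf1 was at 855 and 837 CPM in HIRA KO libraries 1 and 2 and at 251 and 240.1 CPM in libraries 3 and 4, and its log2 fold change was 0.02 without libraries 1 and 2. Nuclear genes for subunits of oxidative phosphorylation were above zero in 29 of 32, beside 53.2% over all genes, with a small median of 0.26. In 9 of them all HIRA KO values lay above all control values, beside 4.2% over all genes. These genes are short, with a median exon length of 1568 bases beside 3205 over all genes tested. Gene length is taken up below. Ndufb7 and Ndufc1 of complex I had log2 fold changes of 0.41 and 0.37 (adjusted p = 0.0599 and 0.0687). Among urea cycle and amino acid genes 15 of 18 were above zero with a median of 0.39. Asl, of the urea cycle, and Got1, the cytosolic aspartate aminotransferase, had the smallest p, with adjusted p of 0.119 and 0.175. Got1 was at 440.1 and 451 CPM in HIRA KO libraries 1 and 2 against 92.3 and 91.4 CPM in libraries 3 and 4, and the list median was -0.01 without libraries 1 and 2.

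Acute phase proteins, which the liver secretes in inflammation, were below zero in 14 of 16, while 53.2% of all genes tested were above zero. The median was -0.78, and -0.66 without HIRA KO libraries 1 and 2, and none was called. Hp, which encodes haptoglobin, was at 6627 to 11315 CPM in control and at 3686, 3347, 5963 and 5992 CPM in HIRA KO (adjusted p = 0.286). Crp was the closest to a call, with a log2 fold change of -0.87 (adjusted p = 0.0699), and overlapped between groups. Hp, Itih3, Itih4, Apcs and Orm2 did not overlap, 5 of the 16 genes beside 4.35% of all genes tested. Itih3, Itih4, Apcs and Orm2 had log2 fold changes of -0.79, -0.62, -0.75 and -1.61. Saa3 and Hamp (hepcidin) were the 2 above zero, and Saa3 was so only in HIRA KO libraries 1 and 2, at 70.2 and 94.5 CPM against 7.55 to 14.6 CPM in control. Plasma protein genes had a median of -0.10, with Fga (fibrinogen alpha) at a log2 fold change of -0.87 and Plg (plasminogen) at -0.51 (adjusted p = 0.0985 and 0.125). Among 18 liver transcription factors none was called. Nr5a2, a nuclear receptor, was lower in every HIRA KO library, at 41.6 ± 2.42 CPM against 57.5 ± 4.09 CPM in control (adjusted p = 0.051), with a log2 fold change of -0.42 without HIRA KO libraries 1 and 2.

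Cell cycle genes were not called at this time. All 24 mitosis and cytokinesis genes had log2 fold changes below zero, with a median of -0.71, but the libraries of each group ranged widely. Mki67, the proliferation marker, was at 11.8, 37.5, 70.2 and 78.1 CPM in control and at 24.6, 10.6, 72.9 and 27.1 CPM in HIRA KO (log2 fold change -0.55 ± 0.62, adjusted p = 0.702). The median of the list was -1.22, -1.75, 0.89 and -0.79 from the control mean in HIRA KO libraries 1 to 4, and -0.05 in the fit without libraries 1 and 2. DNA replication genes and G1 cyclins with their inhibitors had medians of -0.08 and 0.09, and of 0.08 and 0.05 without those libraries, and none of their genes was called. The growth hormone and sex biased genes had a median of -0.07, and of 0.12 without libraries 1 and 2. In that list Stat5b, the transcription factor of growth hormone signalling, was at 57.2 ± 11.8 CPM in control and 36.1 ± 5.96 CPM in HIRA KO (adjusted p = 0.0548), and Cux2 was at 12.3 and 11.6 CPM in HIRA KO libraries 1 and 2 alone, against at most 0.684 CPM in the other 6.

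Several lists split by library. Interferon response genes had a median of 0.01 (0.51 without HIRA KO libraries 1 and 2), made up of -0.86 and -1.18 in HIRA KO libraries 1 and 2 and 0.57 and 0.50 in libraries 3 and 4. NRF2 antioxidant genes had a median of -0.69, with -1.53 and -1.54 in libraries 1 and 2 and 0.05 and -0.28 in libraries 3 and 4, and of -0.17 without libraries 1 and 2. Aox1 and Gsr, the smallest p of that list, had log2 fold changes of -0.90 and -0.66 (adjusted p = 0.161 and 0.188). MHC class I genes had a median of -0.23, with -0.67 and -0.46 in libraries 1 and 2 and 0.03 and 0.08 in libraries 3 and 4, and of 0.07 without libraries 1 and 2. Their activator Nlrc5 was lower in every HIRA KO library at 22.2 ± 2.69 against 34.6 ± 4.5 CPM (adjusted p = 0.0519). Phase II enzymes had a median of -0.28 with all libraries and 0.21 without libraries 1 and 2, and Ugt2b35 and Sult1d1 had log2 fold changes of -0.54 and 0.55. Pericentral and periportal markers had a median of -0.07, with Lgr5 and Axin2, targets of Wnt signalling, at log2 fold changes of -0.72 and -0.48. Hypoxia response genes had a median of 0.11 (0.03 without libraries 1 and 2) although Ndrg1 and Loxl4 were called, 2 of 18 beside 0.53% of all genes tested. The glucose transporter Slc2a1 was also lower in every HIRA KO library (log2 fold change -0.46, adjusted p = 0.143). With it 3 of the 18 were lower without overlap, beside 4.35% of all genes tested. Ndrg2, Ndrg3 and Ndrg4 were not called. Of the 12 myotubularins, which remove phosphate from phosphoinositides, none was called. Mtmr3, Mtmr4, Mtmr6 and Mtmr9 were lower in every HIRA KO library, with log2 fold changes between -0.53 and -0.24. That is 4 of 12, beside 4.35% of all genes tested.

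The remaining lists held no called gene other than Bc1 in the RNA polymerase III list, where Polr3gl and Polr3b were lower in every HIRA KO library (2 of 15, beside 4.35% of all genes tested). The medians of these lists were 0.00 for RNA polymerase III, -0.22 for the unfolded protein and ATF4 response, 0.07 for heat shock, 0.04 for p53 targets, 0.05 for iron handling, 0.10 for glucose and glycogen, 0.26 for fetal liver genes, 0.43 for immediate early genes, 0.15 for ribosomal proteins and 0.09 for mitochondrial transcripts. Without HIRA KO libraries 1 and 2 the medians of the fetal liver genes and mitochondrial transcripts changed sign, to -0.24 and -0.17, and that of the immediate early genes was 0.18. Among the genes with the smallest p in these lists were Pdia4 and Psat1, Hspa8 and Hspe1, Mdm2 and Eda2r, Id1 and Hamp, Fbp1 and Ppp1r3c, Igf2 and Gpc3, Dusp1 and Jund, Rps29 in the ribosomal list, and mt-Nd3 and mt-Co3, with adjusted p between 0.13 and 0.514.

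Markers of other liver cells were examined for the whole tissue, and none of them was called. Hepatocyte markers summed to between 115964 and 165251 CPM in control and between 124785 and 153104 CPM in HIRA KO. Several lists were higher in HIRA KO libraries 1 and 2. Cholangiocyte markers had 9 of 10 genes above zero and a median of 0.70, which was 0.20 without those libraries, with Cldn4 and Cftr at 0 in 1 HIRA KO library. Their summed level was 96.4 to 137 CPM in control and 99.8 to 159.8 CPM in HIRA KO. B and plasma cell markers had 8 of 9 above zero and summed to 15.4 to 30.2 CPM in control and 22.1 to 648 CPM in HIRA KO. Igkc, an antibody light chain, was at 539.9 CPM in HIRA KO library 1 and 25.3 CPM in library 2, and at 3.43 to 7.92 CPM in the other 6. Stellate cell and matrix markers (14 of 15 above zero, median 0.29), monocyte and neutrophil markers (9 of 9, 0.45), erythroid markers (7 of 7, 0.44) and mesothelial markers (7 of 7, 0.52) had medians of 0.16, -0.11, 0.12 and 0.07 without libraries 1 and 2. Stellate cell markers were at 0.61, 0.25, 0.01 and 0.32 from the control mean in HIRA KO libraries 1 to 4. Mesothelial markers were at 0.66, -0.15, 0.24 and -0.04, so both lists were highest in library 1 alone. The mesothelial list holds the keratin genes Krt8 and Krt18, which are not limited to mesothelial cells, and summed to 594 to 862 CPM in control. Kupffer cell, endothelial and T and NK cell markers had medians of 0.08, 0.00 and 0.14, and the first of these was 0.24 without libraries 1 and 2. Adipocyte markers had a median of -0.51, with Adipoq at 0 in 3 HIRA KO libraries and Plin1 at 0 in 2 control and 3 HIRA KO libraries. The part of these cells in the called genes was not tested.

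**Figure D4:**
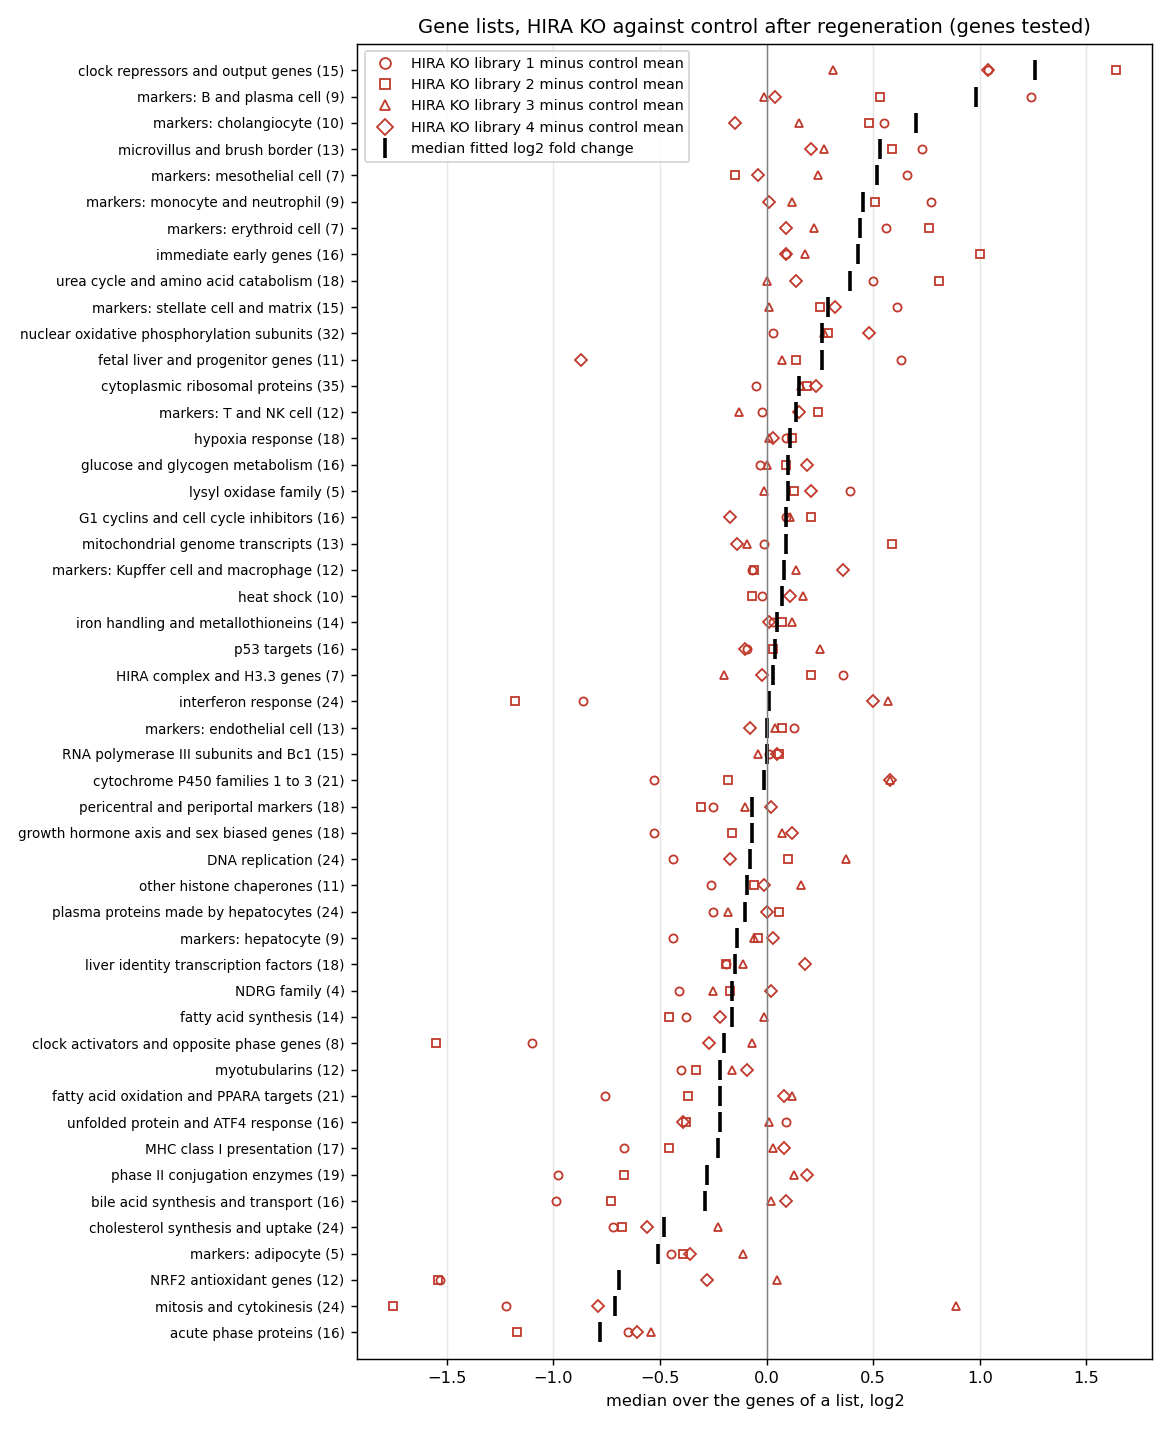
Median over the genes of each list, in log2, for each HIRA KO library minus the control mean of log2(CPM + 1) (red marks, shape by library number) and for the fitted log2 fold change (black bar). The number of genes tested is in brackets. Clock repressors stand highest with a fitted median of 1.26 and acute phase proteins lowest with -0.78, and interferon response genes lie on opposite sides of zero in libraries 1 and 2 and in libraries 3 and 4.

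The called genes differed in length. The median exon length (all exons of a gene joined, GENCODE M21) was 2572 bases for the genes that rose and 7100 bases for the 56 genes that fell and have a match, beside 3205 bases over all genes tested. Genes with a mean CPM of at least 1 were divided by length into 5 bins of nearly equal size. In the longest bin (2586 genes of 7330 bases or more) 2 genes rose and 27 fell, while in the shortest (2587 genes of up to 2204 bases) 18 rose and 1 fell. The same order was seen over all genes of each bin. The median log2 fold change went from 0.12 in the shortest through 0.01, -0.03 and -0.07 to -0.10 in the longest. HIRA KO libraries 2, 3 and 4 went from 0.10, 0.14 and 0.17 to -0.11, -0.11 and -0.10, while library 1 stayed between -0.06 and -0.03. Before regeneration the order was the opposite, from -0.08 in the shortest to 0.03 in the longest. Once the length trend of each library had been taken out, an alternative chosen after the data had been seen, 35 genes were called, of which 23 rose and 12 fell, and 31 of them were among the 111. All 10 genes called in at least 4 leave-one-out fits were among them, as were Ciart, Pls1, Loxl4, Cldn1 and H3f3a, while Abcc2, Cyp2b10, Gpt and Sppl2a were not (adjusted p = 0.0758, 0.0672, 0.0672 and 0.0843). The log2 fold changes of these 4 genes moved little, from -0.78, 3.63, 1.15 and -1.02 to -0.69, 3.60, 1.15 and -0.93, and the medians of all genes that rose and of all that fell went from 1.48 and -0.68 to 1.47 and -0.60. The median of the oxidative phosphorylation list went from 0.26 to 0.20 and that of the ribosomal proteins from 0.15 to 0.08. Whether transcript length or RNA quality sets these differences was not tested.

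**Figure D5:**
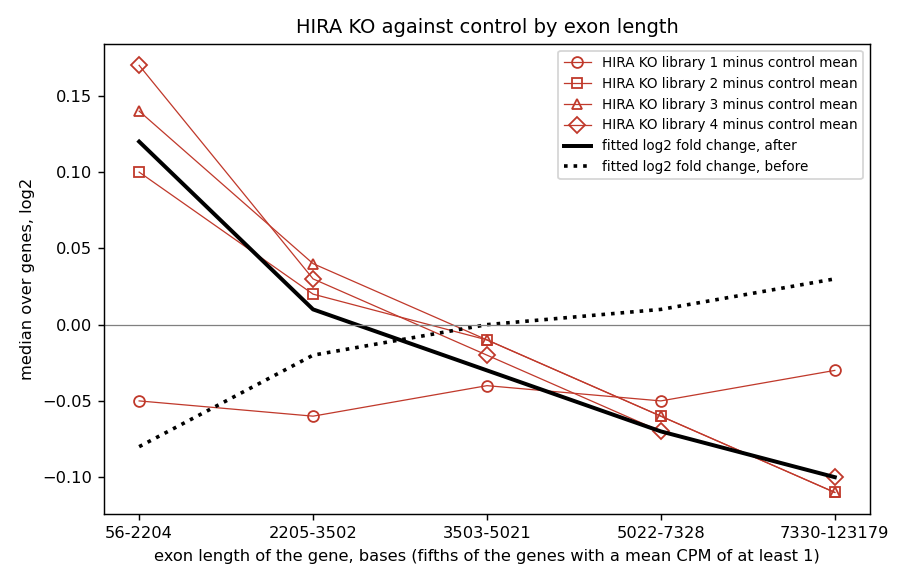
Median log2 difference between HIRA KO and control over 5 equal bins of the genes with a mean CPM of at least 1, ordered by exon length in bases. Red lines are the 4 HIRA KO libraries after regeneration minus the control mean of log2(CPM + 1), the solid black line is the fitted log2 fold change after regeneration and the dotted line that before it. Libraries 2 to 4 fall from above zero to about -0.1 and library 1 is nearly level.

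The last comparison asked whether the difference between HIRA KO and control after regeneration was another than that before it in the same mice. As the columns do not name the mouse, both tissues of a mouse entered the fit as independent samples. No gene passed the test of this difference (0% of genes tested, edgeR), with 1483 genes at an unadjusted p under 0.05, and DESeq2 called 65. Of the 9 genes called before regeneration in this fit, 4 were also among the 111, namely Cdhr2, Kctd17, Atp8b5 and Gm17430. Cdhr2 had a log2 fold change of 3.63 before and 3.48 after, and Pls1 of 3.07 and 3.04. Hira had -0.70 before and -0.68 after, and H3f3a 0.70 and 0.78. St6gal1 had -0.19 before and -1.15 after (unadjusted p of the difference 0.000528), Ndrg1 -0.34 and -1.99 (0.00174), Inmt 0.93 and 2.43 (0.0025) and Ciart 1.87 and 4.78 (0.0102), and none of these passed adjustment over all genes. Over the called genes the median before and after was 0.95 and 1.48 for those that rose and -0.22 and -0.68 for those that fell, and as these genes were chosen on the values after regeneration, the larger size after it is given by the choice. The mitosis list had a median of 0.86 before and -0.71 after, and the interferon list -0.76 and 0.01, with 1 of 24 and 3 of 24 genes at an unadjusted p of the difference under 0.05. Oxidative phosphorylation subunits had 23 of 32 such genes, with a median of -0.20 before and 0.26 after, and ribosomal proteins 14 of 35, with -0.21 and 0.15. Over all genes it was 1483 of 20947. The genes of both lists are short, with median exon lengths of 1568 and 1734 bases. In the shortest length bin the median over all genes also went from -0.08 before to 0.12 after. The part of length in these lists was not tested. The mitochondrial transcripts mt-Co3 and mt-Nd3, which went from -1.55 and -1.50 before to 0.76 and 0.88 after, had unadjusted p of 2.98e-05 and 2.79e-05 and did not pass adjustment either.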

How the data were processed

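Poly-A-selected RNA of liver before and after regeneration had been sequenced in 16 libraries. According to the study's methods, the authors trimmed the reads, used STAR to align them to mm10 and HOMER to count them by gene; the submitters' processing notes name STAR, HTSeq and Cufflinks. The deposited table holds raw read counts for 55421 genes, of which 54673 IDs match GENCODE M21. The deposited FPKM table was not used. The annotation release and any use of strand in counting are not given in the sources used here, so overlapping genes cannot be told apart.

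Counts were scaled by TMM factors (0.918 to 1.09 after regeneration) and edgeR 4.0.16 (R 4.3.3; robust glmQLFit, glmQLFTest) was run on all 16 libraries together, with a mean for each of the 4 groups. Genes with at least 10 counts over the 8 libraries were tested, adjusted by Benjamini-Hochberg and called under 0.05. SEs of log2 fold changes were derived from the F statistic (size of the change over the root of F). DESeq2 1.42.0, limma-voom 3.58.1 and other scalings, filters and sets of libraries were alternatives. The pipeline was tested on simulated data. Depth sets the counting error: 1 read was at most 0.0662 CPM, and the spread between libraries exceeded it, since replicate pairs had a chi-square of 11.9 to 85.4 per degree of freedom.

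Named genes were Hira; up to 12 genes in each direction that changed most, without overlap and with mean CPM no lower than 1; 5 in each direction with the highest CPM; those called by DESeq2 on the 8 libraries and in 4 or more leave-one-out fits; and in each of 38 lists the called members or the 2 with the smallest p. Other list members, mostly those without overlap, were named after their values were seen. These members, lists and rules were chosen with earlier results of these data known, and the lists are not independent evidence. List members E4bp4, Tf and Hfe2 carry names that matched no gene tested, and Epo, Dlk1, Ush1c, Cdhr1, Ly6g and Lep were not among the genes tested. Some genes are not reported here.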

Additional observations from a re-analysis of the deposited data

Results flagged for a closer look

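Among 304 groups of 4 libraries, the control and HIRA KO groups of 152 genes examined, 19 held 1 library far from the other 3 by Dixon's criterion, which chance meets in about 1 of 20 groups. Of all 111 called genes, 5 had such a library. Hira was at 4.59 CPM in HIRA KO library 4 and at 3.06 to 3.3 CPM in the others, and its log2 fold change was -0.82 (adjusted p = 0.0248, edgeR) without that library. In HIRA KO library 2, Arhgap32 (4.37 CPM, others 7.72 to 7.76) and Apcs (134 CPM, others 220.4 to 224) were low, and Per1 (64.1 CPM, others at most 23 CPM), Slc9a3r1 (382 CPM, others 207 to 236) and Plin1 (0.0446 CPM, others at 0) were high. Igkc was high in HIRA KO library 1 (539.9 CPM, others 5.03 to 25.3) and Adipoq in HIRA KO library 3 (0.191 CPM, others at 0). In control library 1, Orm2 (1138 CPM, others 585 to 653), Igf2 (0.437 CPM), Plin1 (2.31 CPM) and Adipoq (3.5 CPM) were high and Ugt2b35 (331 CPM, others 405 to 417) was low. In control library 3, Cry1 was high (28.3 CPM, others 10.4 to 12.1), and Dbp (0.862 CPM, others 3.06 to 3.36), Cux2 (0.323 CPM) and Gbp2 (8.46 CPM) were low. Mdm2 was high in control library 2 (73.0 CPM, others 58.3 to 59.5) and Slc9a3r1 low in control library 4 (164 CPM, others 195 to 200.5).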

How the results depend on the processing

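The number of called genes was 892 with DESeq2 on the 16 libraries, 515 with DESeq2 and 0 with edgeR or limma-voom on the 8 libraries after regeneration (3046 and 2882 genes at an unadjusted p under 0.05), 59 with library size alone, 228 with filterByExpr, 35 with the length trend taken out, 1 without HIRA KO libraries 1 and 2 and 2398 without HIRA KO libraries 3 and 4, beside 111. Limma-voom on the 8 libraries, the length trend and both fits without a pair of HIRA KO libraries were chosen after the data had been seen. Leaving out 1 library gave 5 to 514. The other 4 alternatives gave 87 to 118. With the number in the column names as a replicate block it was 527. Same-number control and HIRA KO libraries had correlated deviations of 0.0206 to 0.21. Control library 1 was closest to HIRA KO library 2, so the numbers were not taken to pair the samples. Control and HIRA KO libraries numbered 1 or 2 had deviations correlated above zero, as had those numbered 3 or 4 (0.0206 to 0.332). Between numbers 1 or 2 and numbers 3 or 4 all correlations were below zero (-0.0323 to -0.344). Deviations from a group mean add up to zero over the group, so these signs are not independent and some below zero are given by construction. Whether both groups shared a difference by number, and its source, was not tested. The difference between times was called in 65 genes by DESeq2, 42 without HIRA KO libraries 3 and 4, 1 with the replicate block (paired by number) and 0 otherwise. The Hira log2 fold change passed with DESeq2 (-0.68 on 16 and on 8 libraries), filterByExpr (-0.67), the replicate block (-0.68) and without HIRA KO libraries 3 and 4 (-0.80), and was -0.82 to -0.62 without 1 library. Genes that do not overlap numbered 1791, and 2188 to 3165 without 1 library, since fewer libraries overlap less often. Of 152 genes examined, 13 changed sign under an alternative, none of them called. Without HIRA KO libraries 1 and 2, Got1 (-0.02), Hadhb (0.02), Igf2 (-0.38), Saa3 (-0.23), Cabin1 (-0.34), Cldn4 (-2.52), Clock (0.03), Mki67 (0.02), Ndrg2 (0.01) and Per2 (-0.04) did so. Nr1d1 (-0.14) and Ubn2 (0.09) did so without libraries 3 and 4, Rora (0.06) and Ubn2 (0.05) with the length trend out, both (0.01) with library size alone, and Cldn4 with limma-voom (-0.11 on 16 and -0.09 on 8 libraries). Without 1 library the values ran from -0.13 to 0.16 for Cabin1, -0.31 to 1.44 for Cldn4, -0.32 to 0.04 for Clock, -0.12 to 0.41 for Nr1d1, -0.13 to 0.02 for Rora and -0.18 to 0.05 for Ubn2. Apart from such constructions (fewer libraries or genes), the cause was not tested. The depth of at least 16981835 reads limits genes near 1 read, such as Slc5a9 in control.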
